A study of Mus musculus with 12 samples.

Results

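The genes described here encode the ligands and receptors that steer growing axons and migrating cells: ephrins and Eph receptors, semaphorins with their plexin and neuropilin receptors, netrins with the Unc5 and neogenin receptors, Slits with Robo receptors, and repulsive guidance molecules. They were chosen by gene symbol, as the probe sets with 1 gene symbol in the platform annotation that begins with one of these family names. The table holds 52 such probe sets, each for a different gene, of 9539 genes in all. Of the 52, 50 are guidance genes, 31 of them ligands and 19 receptors. The other 2 only share the start of a name with the Unc5 receptors: Unc5cl, a cytoplasmic protein of signalling to NF-kB, and Unc50, a membrane protein of the Golgi. A further probe set is shared by Ntng2 and 6530402F18Rik and was not tested.

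In these families the ligand is often itself anchored in a membrane, so that cells read it on contact. Ephrin-A ligands are held by a lipid anchor and ephrin-B ligands span the membrane, and Eph receptors are receptor tyrosine kinases. Class 3 semaphorins are secreted and act mostly through neuropilins paired with A-type plexins, while semaphorins of classes 4 to 6 span the membrane and Sema7a carries a lipid anchor. Slits and netrins are secreted, and Slits act through Robo receptors. Outside the nervous system the same genes set boundaries between tissues, guide blood vessels and control how fibroblasts and epithelial cells adhere and move.

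RNA from 4 groups of mouse cells was hybridised to Affymetrix arrays, 3 arrays a group. Fibroblasts were at passage 3 and carried OG2-GFP, a green fluorescent reporter of the Oct4 gene, and Rosa26-M2rtTA, the doxycycline-dependent activator, and the labels of fibroblast replicates 2 and 3 read Rosa26-M3rtTA and Rosa26-M4rtTA. Day-1 cells were fibroblasts at passage 3 with OG2-GFP/Rosa26-M2rtTA, taken from mice made from Oct4 and Tet1 iPS cells, after 1 day in ES medium with doxycycline, which switches on Oct4 and Tet1. The iPS cells were 1 line at passage 10, induced by Oct4 and Tet1 on the same OG2-GFP/Rosa26-M2rtTA background, while R1 was the ES line, at passage 20 and of strain 129. Both pluripotent lines grew on mitomycin-treated feeder fibroblasts with LIF, a step to remove feeders is described for ES cells, and doxycycline is stated for the day-1 cells alone. Whether the 3 samples of a group were grown as independent cultures is not stated. The p-values therefore reflect the spread among these samples, which may be technical.

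The deposited values are on a log2 scale, and a value of one gene cannot be set against that of another, since each probe set binds with its own strength. A difference of 1 on this scale is 2-fold. A gene was called when its limma p-value, adjusted by the Benjamini-Hochberg method over all 9539 genes, was under 0.05 and its log2 difference was at least 1 in size. The median of an array ranged from 7.98 to 8.06 for iPS cells, from 7.89 to 7.98 for ES cells and from 8.25 to 8.29 for the other groups, and the median difference of all genes was -0.35 in both pluripotent lines against fibroblasts. Among marker genes, 15 of 15 pluripotency markers were higher in iPS and in ES cells than in fibroblasts, and of 15 fibroblast markers 11 were lower in iPS cells and 14 in ES cells. The collagen markers were not lower by 2-fold in iPS cells. Col1a1 stood at 12.22 in iPS cells and 11.96 in fibroblasts, Col1a2 at 11.98 and 11.78, and Col3a1 at 9.73 and 10.13. Pou5f1, which encodes the induced Oct4, stood at 5.04 ± 0.18 (SD, n = 3) in fibroblasts and 11.79 ± 0.06 in day-1 cells. In RNA from whole cultures, fewer cells of a type and less RNA per cell cannot be told apart. Replicate 1 of the fibroblasts lay farthest from the median of its group for 30 of the 52 genes (57.7%), against 41.6% of all genes. Where a member's call changed without that array, the difference without it is given.

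**Figure D1:**
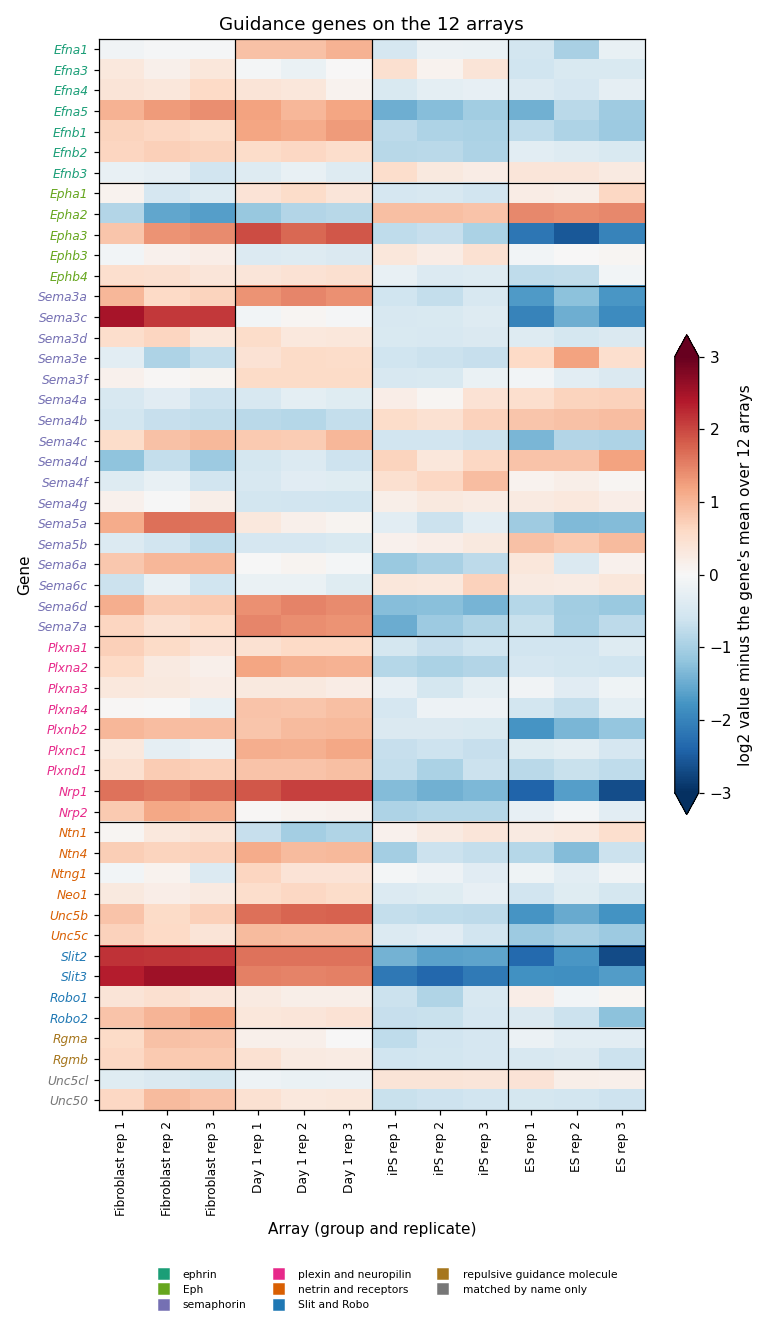
Each row is 1 of the 52 genes and each column 1 of the 12 arrays, and colour gives the log2 value minus the gene's mean over the 12 arrays, with gene names coloured by family and colours saturating at -3 and 3. Slit2, Slit3, Nrp1 and Sema3c are among the rows with the strongest contrast between fibroblasts and pluripotent cells, and Epha2, Sema4b and Sema4d run the other way.

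Both pluripotent lines were set against fibroblasts to ask which guidance genes differ between these cells. Cell state and passage differ together here, as does strain for the ES cells. Growth on feeders with LIF is described for the pluripotent lines. In iPS cells 27 of the 52 genes were called lower and 4 higher, where 29.6% and 21.8% of all genes tested were. In ES cells 24 were lower and 6 higher, where 32.1% and 23.4% of all genes were. In either direction this was 59.6% of members in iPS cells and 57.7% in ES cells, against 51.3% and 55.6% of all genes. Adjusted p-values alone gave 44 and 49 members, against 94.2% and 94.9% of all genes. The lower genes included the secreted repellents Slit2 and Slit3 and the receptors Nrp1, Unc5b and Epha3, while the receptor Epha2 and the membrane semaphorins Sema4b and Sema4d were higher. The median difference of the members was -1.04 in iPS cells and -0.94 in ES cells. With each array centred on a common median, 23 members were lower and 7 higher in iPS cells, and 19 lower and 9 higher in ES cells. The shares of all genes given above are for uncentred arrays and do not apply to these centred counts. Both comparisons use the same 3 fibroblast arrays, so their values are given side by side and not as 2 independent results.

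The Slit genes fell furthest. Slit3 read 11.74, 11.94 and 11.92 in the 3 fibroblast arrays, 10.89, 10.87 and 10.91 in day-1 cells, 7.25, 7.04 and 7.27 in iPS cells and 7.59, 7.56 and 7.72 in ES cells. The arrays of the 4 groups do not overlap, and both pluripotent lines lie more than 3 log2 units under the day-1 cells. The Slit3 difference from fibroblasts was -4.68 ± 0.08 (SE) in iPS cells, or 25.7-fold lower (limma adjusted p = 8.3e-14), and -4.25 ± 0.08 in ES cells, 19.0-fold lower (adjusted p = 1.0e-13). Slit2 read 11.26, 11.22 and 11.21 in fibroblasts, 10.72, 10.71 and 10.71 in day-1 cells, 7.66, 7.49 and 7.51 in iPS cells and 6.76, 7.35 and 6.41 in ES cells. Its ES arrays are spread more widely than those of any other group, with replicate 2 highest. Slit2 was 12.8-fold lower in iPS cells (-3.68 ± 0.17; adjusted p = 1.5e-10) and 21.0-fold lower in ES cells (-4.39 ± 0.17; adjusted p = 2.1e-11). Of the receptors that bind Slits, Robo2 was lower in both lines (-1.64 ± 0.16 and -1.80 ± 0.16). Robo1 fell in iPS cells by 1.08 on the log2 scale, a call that ended when arrays were centred (-0.83) or iPS replicate 2 was left out (-0.96), and its difference of -0.36 ± 0.10 in ES cells was not called. Robo1 and Robo2 are direct neighbours among the protein-coding genes of their chromosome.

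The start regions of 4 members are printed as examples of genes that moved in opposite directions: Slit2, Slit3 and Nrp1, the 3 lowest called differences in iPS cells, and Epha2, the highest in both lines. Each line gives the 250 bases before the annotated start, 5′ to 3′ on the gene's strand, from RefSeq on GRCm38.p6, and capitals mark CG, the dinucleotide whose cytosine is methylated in mammals and is the substrate of Tet1 once methylated.
Slit2, chr5:47982905-47983154, plus strand: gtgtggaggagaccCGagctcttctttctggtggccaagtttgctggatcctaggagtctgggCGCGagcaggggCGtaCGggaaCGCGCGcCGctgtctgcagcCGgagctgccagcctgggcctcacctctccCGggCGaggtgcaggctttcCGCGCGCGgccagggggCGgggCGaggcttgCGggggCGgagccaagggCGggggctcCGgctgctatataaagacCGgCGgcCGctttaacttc
Slit3, chr11:35121206-35121455, plus strand: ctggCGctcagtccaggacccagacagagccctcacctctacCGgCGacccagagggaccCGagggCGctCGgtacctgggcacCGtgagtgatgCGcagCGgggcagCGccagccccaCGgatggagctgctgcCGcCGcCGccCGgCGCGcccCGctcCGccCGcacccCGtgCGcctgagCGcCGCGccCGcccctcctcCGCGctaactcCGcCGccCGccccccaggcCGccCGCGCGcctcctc
Nrp1, chr8:128358823-128359072, plus strand: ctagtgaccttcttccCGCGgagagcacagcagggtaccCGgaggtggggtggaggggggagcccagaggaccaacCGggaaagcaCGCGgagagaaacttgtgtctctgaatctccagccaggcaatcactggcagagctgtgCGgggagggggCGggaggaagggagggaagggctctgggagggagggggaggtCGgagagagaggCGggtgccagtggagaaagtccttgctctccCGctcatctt
Epha2, chr4:141300971-141301220, plus strand: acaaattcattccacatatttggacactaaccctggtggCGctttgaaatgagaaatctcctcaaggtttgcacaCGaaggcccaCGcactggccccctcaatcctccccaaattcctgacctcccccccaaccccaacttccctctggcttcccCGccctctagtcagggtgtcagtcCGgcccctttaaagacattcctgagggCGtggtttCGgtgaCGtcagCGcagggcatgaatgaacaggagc
The 250 bases hold 25 CG in Slit2, 35 in Slit3, 11 in Nrp1 and 9 in Epha2. Of the 52 members 45 have at least 1 such RefSeq window, which runs from 250 bases before to 50 after the start. The median number of CG per 300-base window, averaged over a gene's windows, was 23 for these members and 20 for the 7537 tested genes with a window. The E-box CAGGTG, bound by Snail and Zeb factors, was found on either strand in windows of 10 of the 45 (22.2%), against 20.8% of tested genes and 22.6% of all genes in the RefSeq table, and the windows of the 4 genes printed lack it. The TATA motif TATAAA was found in 3 of the 45 (6.67%), Slit2 among them, against 9.75% of tested genes and 15.7% of all. The octamer ATGCAAAT, which Oct4 binds, was in none of the 45 and in 1.65% of tested genes and 1.97% of all. None of these motifs contains another. A match is a description of the letters, and a missing match says only that they are not in this window.

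Among the semaphorins, the largest family here with 17 genes, members moved in both directions. In iPS cells 7 were lower and 3 higher (41.2% and 17.6%), against 29.6% and 21.8% of all genes. In ES cells 6 were lower and 5 higher (35.3% and 29.4%), against 32.1% and 23.4% of all genes. Sema3c, a secreted ligand of neuropilins, read 10.37, 10.02 and 10.02 in fibroblasts, 7.42, 7.45 and 7.53 in iPS cells and 5.91, 6.44 and 6.03 in ES cells, with no overlap between the groups. It was 6.36-fold lower in iPS cells (-2.67 ± 0.13; limma adjusted p = 2.4e-10) and 16.1-fold lower in ES cells (-4.01 ± 0.13; adjusted p = 4.2e-12). Sema3a, a collapsing factor for growth cones, fell by 1.35 and 2.31 on the log2 scale in iPS and ES cells. Sema5a, a transmembrane semaphorin with thrombospondin repeats, fell in both lines (-1.89 ± 0.14 and -2.70 ± 0.14), as did Sema6d (-2.19 ± 0.10 and -1.89 ± 0.10), Sema7a, which also binds integrins (-1.73 ± 0.13 and -1.39 ± 0.13), and Sema4c (-1.40 ± 0.13 and -1.85 ± 0.13). Sema6a was lower in iPS cells (-1.89 ± 0.16) and had -0.93 ± 0.16 in ES cells, where it was called only without ES replicate 1 (-1.09).

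The semaphorins that rose were of classes 3 to 5. Sema4d, a ligand of B-type plexins, read 5.95, 6.43 and 6.06 in fibroblasts, 7.82, 7.49 and 7.78 in iPS cells and 7.99, 8.0 and 8.36 in ES cells. Its pluripotent arrays all lie above the highest fibroblast array by more than 1. Sema4d was 2.93-fold higher in iPS cells (1.55 ± 0.14; limma adjusted p = 1.3e-07) and 3.93-fold higher in ES cells (1.97 ± 0.14; adjusted p = 9.3e-09). Sema4b read 8.16, 8.02 and 7.97 in fibroblasts, 9.26, 9.18 and 9.40 in iPS cells and 9.53, 9.59 and 9.64 in ES cells. Sema4b was higher by 1.23 ± 0.08 in iPS cells (adjusted p = 4.9e-09) and by 1.54 ± 0.08 in ES cells (adjusted p = 4.1e-10). Sema4f was called in iPS cells only (1.06 ± 0.11, against 0.50 ± 0.11 in ES cells), and that call ended without iPS replicate 3 (0.94) or fibroblast replicate 3 (0.97). Sema4a (1.10 ± 0.11, against 0.71 in iPS cells), Sema5b (1.44 ± 0.09, against 0.78) and Sema3e (1.43 ± 0.17, against 0.01) were called in ES cells and not in iPS cells. Sema3d (-0.97 and -0.96), Sema3f (-0.48 and -0.36), Sema6c (0.93 and 0.77) and Sema4g (0.13 and 0.15) were called in neither line. Sema3d passed in both lines without fibroblast replicate 3 (-1.05 and -1.04), and Sema6c in iPS cells without fibroblast replicate 2 (1.07). With centred arrays Sema6c passed in iPS cells (1.18) and ES cells (1.10) and Sema5b in iPS cells (1.02), and with quantile normalization Sema6c (1.05) and Sema3d (-1.01) passed in iPS cells.

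Plexins and neuropilins, the receptors of semaphorins, fell in 6 of 9 cases in iPS cells and 5 of 9 in ES cells. These were 66.7% and 55.6%, against 29.6% and 32.1% of all genes. No member of this family was called higher, where 21.8% and 23.4% of all genes were. Neuropilin-1, Nrp1, is shared by class 3 semaphorins and vascular endothelial growth factor. Nrp1 read 10.34, 10.26 and 10.38 in fibroblasts, 10.57, 10.76 and 10.76 in day-1 cells, 7.40, 7.25 and 7.36 in iPS cells and 6.29, 7.04 and 6.03 in ES cells. The day-1 arrays are the highest, and ES replicate 2 lies near the iPS arrays. Nrp1 was 7.94-fold lower in iPS cells (-2.99 ± 0.19; limma adjusted p = 3.2e-09) and 14.6-fold lower in ES cells (-3.87 ± 0.19; adjusted p = 1.9e-10). Nrp2 fell by 1.89 in iPS cells and 1.22 in ES cells, the latter a call that ended with centred arrays (-0.89). Plxnb2, a receptor of class 4 semaphorins, fell by 1.39 and 2.38, and Plxnd1, a receptor of Sema3e, by 1.41 and 1.40. Plxna1 fell by 1.18 and 1.07, calls that ended with centred arrays (-0.93 and -0.74), and Plxna2 by 1.23 in iPS cells, which also ended with centred arrays (-0.99), with -0.89 ± 0.10 in ES cells. Plxna3 (-0.63 and -0.47), Plxna4 (-0.21 and -0.45) and Plxnc1, the receptor of Sema7a (-0.63 and -0.35), were not called in either line.

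In the ephrin system the receptor Epha2 rose. Epha2 read 8.79, 8.10 and 8.01 in fibroblasts, 8.53, 8.78 and 8.84 in day-1 cells, 10.56, 10.57 and 10.51 in iPS cells and 11.10, 11.06 and 11.11 in ES cells. Fibroblasts and day-1 cells overlap, and both pluripotent lines lie well above them. Epha2 was 4.76-fold higher in iPS cells (2.25 ± 0.16; limma adjusted p = 1.2e-08) and 6.94-fold higher in ES cells (2.80 ± 0.16; adjusted p = 1.0e-09). Epha3, another Eph receptor that binds ephrin-A ligands, read 7.51, 8.03 and 8.09 in fibroblasts, 8.64, 8.40 and 8.54 in day-1 cells, 5.91, 6.0 and 5.73 in iPS cells and 4.52, 4.14 and 4.68 in ES cells. Epha3 went the opposite way to Epha2, 3.99-fold lower in iPS cells (-2.0 ± 0.16; adjusted p = 4.3e-08) and 10.8-fold lower in ES cells (-3.43 ± 0.16; adjusted p = 1.4e-10). Epha1 (-0.25 in iPS cells and 0.61 in ES cells), Ephb3 (0.27 and -0.09) and Ephb4, the receptor of ephrin-B2 in veins (-0.79 and -0.97), were not called. Ephb4 passed in ES cells without fibroblast replicate 3 (-1.01) or ES replicate 3 (-1.19).

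Of the 7 ephrin genes, 3 fell in each line (42.9%), where 29.6% of all genes were lower in iPS cells and 32.1% in ES cells. No ephrin gene was called higher, where 21.8% and 23.4% of all genes were. Efna5 read 8.33, 8.57 and 8.69 in fibroblasts, 5.82, 6.01 and 6.26 in iPS cells and 5.86, 6.5 and 6.24 in ES cells, and the lines overlap each other but not the fibroblasts. It was 5.66-fold lower in iPS cells (-2.50 ± 0.15; limma adjusted p = 3.0e-09) and 5.03-fold lower in ES cells (-2.33 ± 0.15; adjusted p = 5.1e-09). The ephrin-B genes Efnb1 (-1.5 ± 0.09 and -1.54 ± 0.09) and Efnb2 (-1.54 ± 0.07 and -1.06 ± 0.07) also fell in iPS and ES cells, and the ES call of Efnb2 ended with centred arrays (-0.73). Efnb3, the third ephrin-B gene, had positive differences of 0.70 ± 0.10 and 0.68 ± 0.10 that were not called, except in ES cells with centred arrays (1.01). The ephrin-A genes Efna1, Efna3 and Efna4 lie next to each other among protein-coding genes of chromosome 3. None of the 3 was called, with differences of -0.24, 0.05 and -0.77 in iPS cells and of -0.52, -0.77 and -0.84 in ES cells.

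Among netrins and their receptors, 3 of 6 genes fell in each line (50%), where 29.6% of all genes were lower in iPS cells and 32.1% in ES cells. No gene of this family was called higher, where 21.8% and 23.4% of all genes were. Unc5b, a repulsive netrin receptor, read 8.32, 8.28 and 8.24 in iPS cells and 7.27, 7.52 and 7.23 in ES cells, all under the fibroblast arrays. It fell by 1.46 in iPS cells (SE 0.09; limma adjusted p = 3.0e-09) and 2.4 in ES cells (SE 0.09; adjusted p = 1.8e-11). Unc5c fell by 1.61 in ES cells, and its iPS difference of -1.0 ± 0.09 lay on the threshold, since the call ended under 5 settings, among them centred arrays (-0.76) and leaving out fibroblast replicate 1 (-0.94), fibroblast replicate 2 (-0.98) or iPS replicate 3 (-0.94). The ligand Ntn4, a netrin of basement membranes, fell by 1.5 and 1.64. Ntn1 stood at the fibroblast level in both lines, with 0.00 (95% interval -0.24 to 0.24) in iPS cells and 0.11 (-0.12 to 0.35) in ES cells. Ntng1, a membrane-anchored netrin relative, had -0.06 and -0.07, and neogenin, Neo1, a receptor of netrins and repulsive guidance molecules, had -0.59 ± 0.07 and -0.74 ± 0.07. The repulsive guidance molecules are lipid-anchored ligands of neogenin that also act as co-receptors for bone morphogenetic proteins, and both measured genes fell. Rgma read 8.09, 8.38 and 8.37 in fibroblasts, 7.66, 7.67 and 7.52 in day-1 cells, 6.76, 6.94 and 6.99 in iPS cells and 7.32, 7.20 and 7.19 in ES cells. In iPS cells Rgma fell by 1.38 and Rgmb by 1.28, while in ES cells Rgma fell by 1.04 and Rgmb by 1.25. The ES calls of Rgma and Rgmb ended with centred arrays (-0.71 and -0.92), and that of Rgma also without fibroblast replicate 2 (-0.99) or 3 (-1.0). Of the genes that share only a name, Unc50 fell by 1.44 and 1.38, and Unc5cl was not called (0.83 and 0.70) except with centred arrays (1.07 and 1.03).

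**Figure D2:**
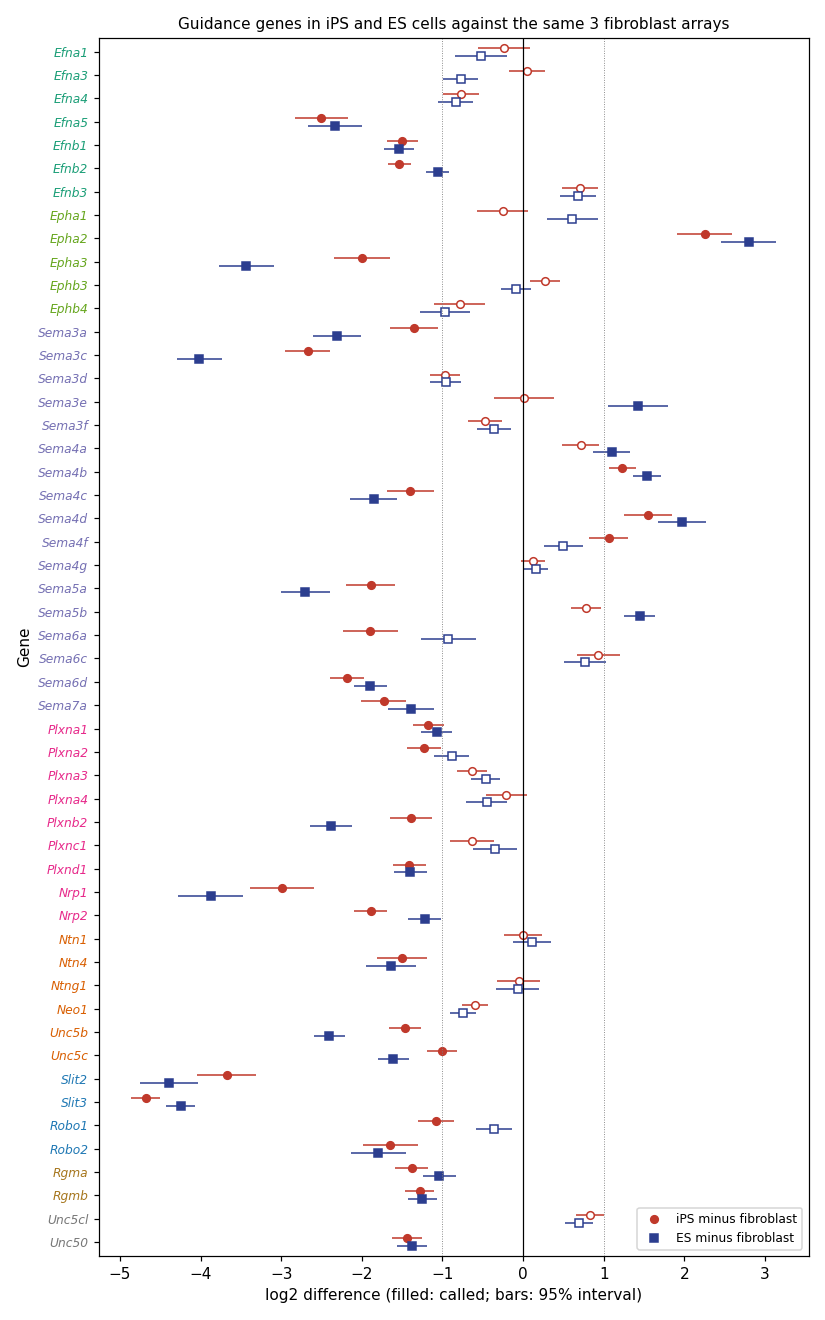
The log2 difference of each of the 52 genes from fibroblasts (x axis) is shown for iPS cells (circles) and ES cells (squares), with 95% intervals from limma, filled where called and with dotted lines at a 2-fold difference. The 2 Slit genes lie between -3.68 and -4.68, while Epha2 lies at 2.25 and 2.80, and the 2 series share their 3 fibroblast arrays.

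Day-1 cells were compared with fibroblasts to ask what differs after 1 day of induction, with doxycycline, the medium and the source of the cells differing together. In this comparison 3 members were called higher and 3 lower, where 3.46% and 4.33% of all genes were (11.5% of members and 7.79% of genes in either direction). The members higher were the ligand Sema3e and the receptors Plxnc1 and Unc5b, and those lower were the ligands Sema3c, Sema5a and Ntn1. The median difference of the members was 0.03, and that of all genes 0.05. Adjusted p-values alone, without the 2-fold minimum, gave 33 of 52 members, against 57.1% of all genes, so most of these differences are small.

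Sema3c read 7.83, 7.96 and 7.88 in day-1 cells, all more than 2 log2 units under the fibroblast arrays given above. Its difference of -2.25 ± 0.13, or 4.75-fold lower (limma adjusted p = 2.3e-08), was the largest of any member at this stage. Sema5a read 8.52, 9.07 and 9.05 in fibroblasts and 7.73, 7.57 and 7.51 in day-1 cells. The groups do not overlap, and fibroblast replicate 1 is the nearest to the day-1 arrays (-1.28 ± 0.14; adjusted p = 8.1e-06). Ntn1, which attracts axons through Dcc and repels through Unc5, read 8.08, 8.34 and 8.40 in fibroblasts and 7.32, 7.01 and 7.11 in day-1 cells (-1.12 ± 0.11; adjusted p = 2.5e-06). In iPS cells Ntn1 read 8.15, 8.29 and 8.38, so the day-1 cells alone were low.

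Sema3e read 6.65, 6.04 and 6.27 in fibroblasts and 7.41, 7.55 and 7.53 in day-1 cells (1.18 ± 0.17; limma adjusted p = 7.5e-05). Plxnc1 read 6.74, 6.16 and 6.23 in fibroblasts and 7.52, 7.49 and 7.57 in day-1 cells (1.15 ± 0.12; adjusted p = 6.6e-06). Sema3e and Plxnc1 do not overlap between the groups, and for both genes fibroblast replicate 1 lies nearest to the day-1 arrays. Unc5b read 9.88, 9.61 and 9.73 in fibroblasts and 10.69, 10.78 and 10.79 in day-1 cells. Its difference of 1.01 ± 0.09 (adjusted p = 1.1e-06) sits on the 2-fold threshold, and the call ended without fibroblast replicate 2 (0.95) or day-1 replicate 3 (0.99). Without the dimmest 25% of genes, a filter that removes Sema3e and Plxnc1, 1 member was higher.

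Several members came close to a call. The ligand Efna1 read 6.40, 6.47 and 6.48 in fibroblasts and 7.40, 7.39 and 7.55 in day-1 cells, a difference of 1.00 ± 0.15 that fell just short of the minimum and passed it under 5 settings, while its neighbours Efna3 and Efna4 had -0.36 and -0.16. Slit3 (-0.98 ± 0.08) and Nrp2 (-0.92 ± 0.09) passed when fibroblast replicate 1 was left out (-1.04 and -1.03). Plxna4, a co-receptor of class 3 semaphorins, had 0.94 ± 0.12, Sema6a -0.93 ± 0.16 and Sema7a 0.84 ± 0.13. Plxna2 (0.76), Epha1 (0.72), Sema4g (-0.68), Rgma (-0.66), Epha3 (0.65), Robo2 (-0.64), Sema3a (0.64), Ntng1 (0.61), Efnb1 (0.58), Sema6d (0.55) and Slit2 (-0.52) followed in size. The other 29 members lay between -0.49 and 0.49. For Ephb4 the 95% interval ran from -0.33 to 0.29, for Plxnb2 from -0.30 to 0.23 and for Plxna3 from -0.19 to 0.17.

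Markers of other cell types also moved at day 1. Of 6 measured neural markers 4 were higher, among them Nefl (2.66 ± 0.14) and Map2 (2.62 ± 0.10), and the mean of the list ranged from 6.19 to 6.49 in fibroblasts and from 7.83 to 7.86 at day 1, while Sox1 and Syp were not called. Of 10 macrophage markers 3 were lower and 1 higher, and of 15 fibroblast markers 3 were lower. Of 6 smooth muscle and pericyte markers 3 were higher, Des, Myh11 and Cspg4, and the mean of that list was 9.25 to 9.53 in fibroblasts and 10.16 to 10.28 at day 1. Their part in the day-1 differences of guidance genes was not tested.

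**Figure D3:**
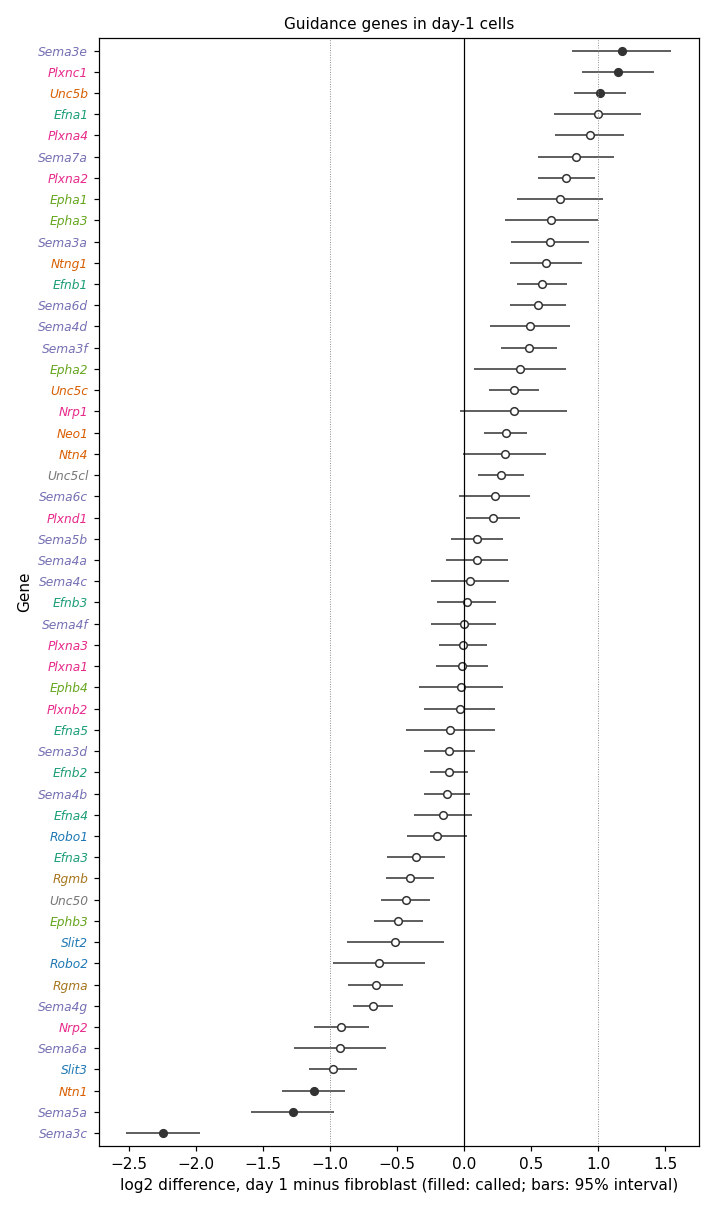
The log2 difference of each of the 52 genes between day-1 cells and fibroblasts (x axis) is ordered by size, with 95% intervals from limma, filled where called and with dotted lines at a 2-fold difference. Sema3e, Plxnc1 and Unc5b lie at the top and Sema3c, at -2.25, lies apart at the bottom.

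Induced iPS cells were also set against day-1 cells, with cell state, passage and the source of the cells differing together. Doxycycline is stated for the day-1 cells alone, and growth on feeders with LIF is described for the iPS cells. Here 24 members were lower and 5 higher, where 26.6% and 17.6% of all genes were. In either direction this was 55.8% of members and 44.2% of genes, and adjusted p-values alone gave 52 members and 92.8% of genes. Nrp1 (-3.36 ± 0.19), Slit3 (-3.70 ± 0.08) and Slit2 (-3.16 ± 0.17) had the 3 lowest differences. Sema4b (1.36 ± 0.08), Epha2 (1.83 ± 0.16) and Ntn1 (1.13 ± 0.11) had the 3 highest, and Sema4d (1.06 ± 0.14) and Sema4f (1.07 ± 0.11) were also called higher, the last not without iPS replicate 3 (0.94). Of the genes higher at day 1, Plxnc1 was lower in iPS cells than at day 1 by 1.78, Unc5b by 2.48 and Sema3e by 1.16, and the Sema3e call ended with centred arrays (-0.92). Of the genes lower at day 1, Sema3c differed between day-1 and iPS cells by -0.42 ± 0.13 and Sema5a by -0.61 ± 0.14. Neither was called, whereas Ntn1 in iPS cells stood at the fibroblast level. This comparison shares its iPS arrays and its day-1 arrays with those above.

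**Figure D4:**
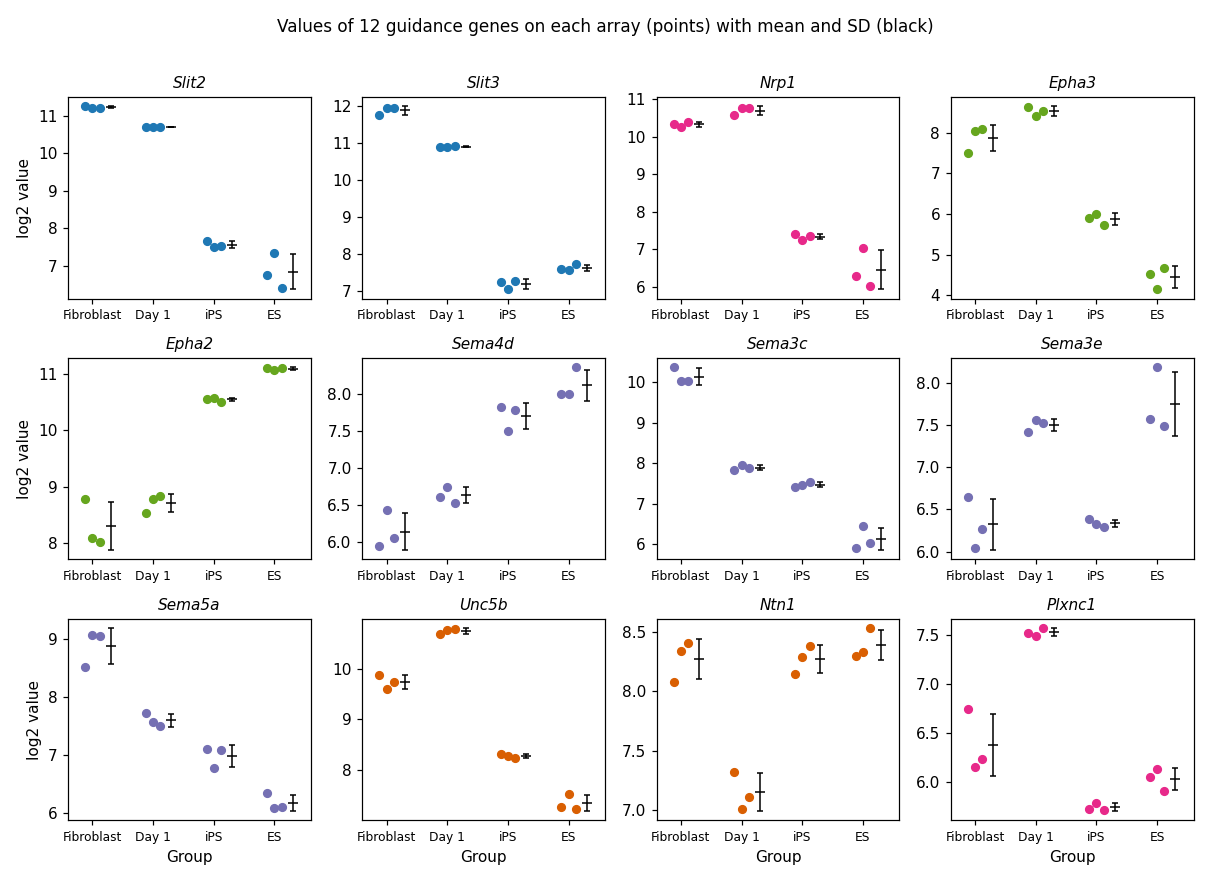
Log2 values (y axis, a separate scale in each panel) of 12 guidance genes are shown for each array as points, with the mean and SD of the 3 arrays of a group in black. Sema3c is lower at day 1 than in fibroblasts, and Ntn1 is low and Plxnc1 high at day 1 alone. Sema3e is high in day-1 and ES cells, and the Slit genes and Nrp1 lie far lower in iPS and ES cells than at day 1.

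The iPS line was compared with R1 ES cells to ask how close it stands to an established line, with strain, passage and line differing together. A step to remove feeders is described for the ES cells. In this comparison 2 members were higher in iPS cells and 1 lower, where 4.44% and 2.45% of all genes were, and 49 were not called. In either direction this was 5.77% of members and 6.9% of genes, and adjusted p-values alone gave 29 members and 57.7% of genes. Sema3c was 2.54-fold higher in iPS cells (1.34 ± 0.13; limma adjusted p = 2.2e-06) and Epha3 2.70-fold higher (1.43 ± 0.16; adjusted p = 8.5e-06). Sema3e read 6.38, 6.33 and 6.29 in iPS cells and 7.57, 8.18 and 7.49 in ES cells, with no overlap, and was 2.66-fold lower in iPS cells (-1.41 ± 0.17; adjusted p = 1.7e-05). Without ES replicate 2, which is the highest of the 3 for Sema3e and Sema3c and the lowest for Epha3, the differences of Sema3e, Sema3c and Epha3 were -1.19, 1.5 and 1.28. The filter on the dimmest 25% of genes removes Epha3 and Sema3e, which left 1 member higher and 0 lower. The lowest value of any member, 4.14, was that of Epha3 on ES replicate 2.

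A wider set of genes lay just under 2-fold in this comparison, and its count turned on that ES array. Plxnb2 (1.00 ± 0.12), Sema3a (0.95 ± 0.14), Unc5b (0.94 ± 0.09) and Nrp1 (0.88 ± 0.19) were nearer to a call than Efna3 (0.82), Sema5a (0.81) and Slit2 (0.72), all higher in iPS cells. In the other direction Sema6a (-0.96 ± 0.16), Epha1 (-0.86), Robo1 (-0.72), Nrp2 (-0.67) and Sema5b (-0.66) were lower in iPS cells by less than 2-fold. Sema6a was called with centred arrays (-1.05) and with quantile normalization (-1.07), and Epha1 with the latter (-1.03). Without ES replicate 2, 6 members were called higher in iPS cells and 2 lower, Plxnb2 (1.03), Sema3a (1.12), Unc5b (1.03), Nrp1 (1.18) and, lower, Sema6a (-1.19) joining. Without ES replicate 3 or without iPS replicate 3, Plxnb2 joined (1.14 and 1.01), Sema6a joined without the latter (-1.05), and Sema3a joined without iPS replicate 2 (1.02). The mean of 15 fibroblast markers was 7.44, 7.84 and 7.43 on the 3 ES arrays and 8.34 to 8.47 on the iPS arrays. That of 6 smooth muscle markers was 7.43, 7.88 and 7.32 on ES arrays and 9.31 to 9.36 on iPS arrays, and ES replicate 2 was the highest ES array for both lists. Of the fibroblast markers 5 were higher in iPS cells, among them Lox (3.03 ± 0.27) and Col1a2 (2.60 ± 0.12), and Dcn was lower (-2.08 ± 0.12). The part of feeder or other fibroblast RNA in these differences was not tested.

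Some receptors and ligands that fell in both lines stood close to each other in the lines, while others, such as Sema3c, Epha3, Plxnb2 and Unc5b, differed. Adjusted p-values alone gave 29 of the 52 members a difference between the lines, against 57.7% of all genes. For Plxnd1 the difference between iPS and ES cells was -0.01 (95% interval -0.22 to 0.19), for Rgmb -0.03 (-0.21 to 0.15), for Efnb1 0.04 (-0.15 to 0.23) and for Ntn4 0.14 (-0.17 to 0.45). Slit3, which fell in both lines, was lower in iPS than in ES cells by 0.44 ± 0.08. Epha2, which rose in both, was lower in iPS cells by 0.55 ± 0.16. Robo1, called lower than in fibroblasts in iPS cells alone, was lower there than in ES cells by 0.72 ± 0.10. These differences were all under 2-fold.

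**Figure D5:**
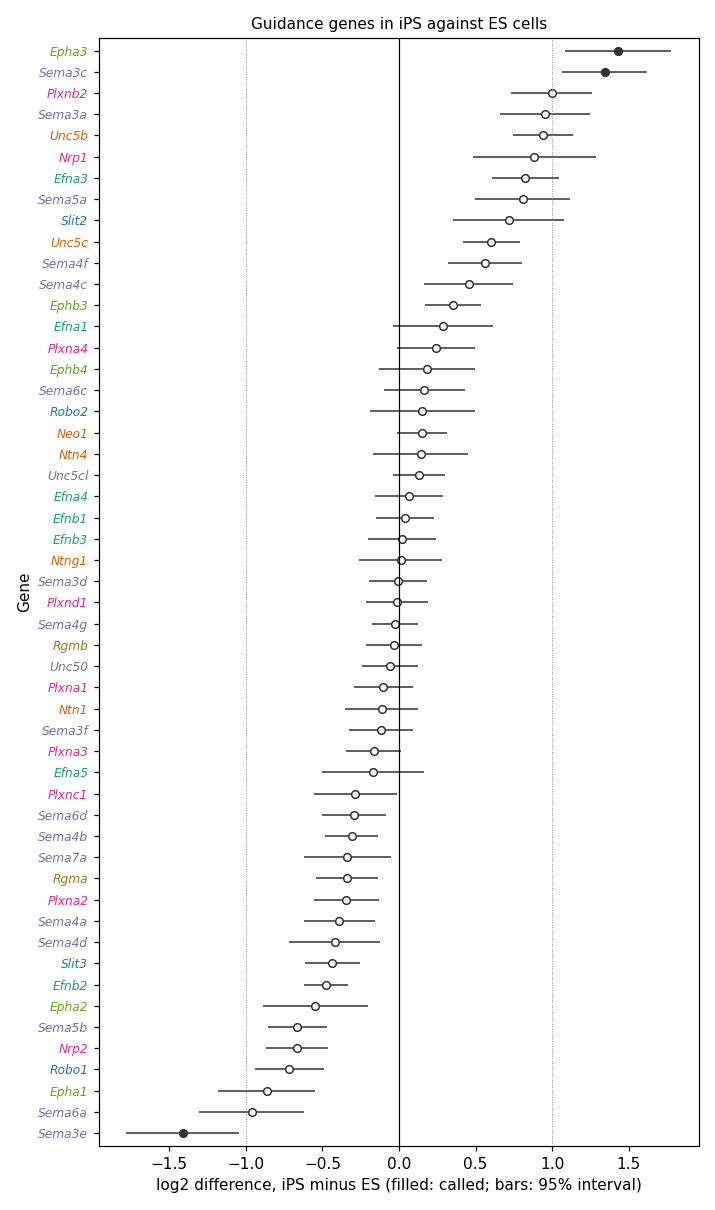
The log2 difference of each of the 52 genes between iPS and ES cells (x axis) is ordered by size, with 95% intervals from limma, filled where called and with dotted lines at a 2-fold difference. Epha3 and Sema3c lie above 1, Sema3e lies at -1.41, and Plxnb2, Sema3a, Unc5b, Nrp1 and Sema6a lie close to the dotted lines.

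Genes that act with these ligands and receptors were counted from a list of 81 effectors, co-receptors and modulators, of which 52 were measured. In day-1 cells 2 of the 52 were higher, Chn1, a GTPase-activating protein for Rac that acts downstream of Epha4 (1.21 ± 0.10), and Mical1, an oxidase of actin that acts downstream of plexins (1.08 ± 0.06), and 1 was lower, the Slit and Robo effector Srgap3 (-1.06 ± 0.08), where 3.46% and 4.33% of all genes were higher and lower. In iPS cells 23 were lower and 4 higher than in fibroblasts, and in ES cells 24 and 4. Of all genes 29.6% and 21.8% were lower and higher in iPS cells, and 32.1% and 23.4% in ES cells. The medians of the list were -0.94 and -0.90, against -0.35 for all genes in both. Flrt2, a membrane ligand of Unc5 receptors, fell in iPS cells (-3.61) and ES cells (-4.72). Plxdc2, a membrane protein with a plexin-like domain, also fell (-3.14 and -3.21), as did the plexin effector Farp2 (-2.65 and -2.72) and the kinase Pak3 (-2.61 and -3.11). The GTPase Rras (-2.09 and -3.28) and the integrin gene Itga1 (-2.63 and -1.95) were lower in both lines as well. Yes1, a kinase of the Src family, was higher in both lines (2.06 and 2.13). Crmp1 was higher in ES cells (2.38) and was not called in iPS cells (0.74). Against ES cells, iPS cells were higher in 3 of the 52, Rras, a GTPase inactivated by plexins (1.19 ± 0.09), Rnd3 (1.16 ± 0.12) and Flrt2 (1.12 ± 0.17), and lower in 2, Crmp1, a mediator of semaphorin signalling (-1.64 ± 0.10), and Arhgap35 (-1.38 ± 0.12). Of all genes 4.44% and 2.45% were higher and lower there. Against day-1 cells, iPS cells had 22 of the 52 lower and 3 higher, where 26.6% and 17.6% of all genes were, with Itga1, an integrin subunit, lowest at -3.27 ± 0.16.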

How the data were processed

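The authors deposited 1 table of log2 values per probe set for 12 arrays. Its header states no scale, and the range of 2.43 to 13.64 was read as log2. Per the labels' protocols the Affymetrix WT terminal labelling kit was used. The summary and normalization of the arrays are not given in the sources used here. Each of the 10360 probe sets varies at least 1.42-fold between arrays, so counts refer to varying genes, and family genes outside it were left aside. Probe sets with 1 symbol in the platform annotation (9542) were kept, with the highest mean where a gene had several, which left 9539 genes. All 52 members matched RefSeq by gene identifier. The number of arrays limits the precision.

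A mean per group was fitted over the 12 arrays in R 4.3.3 with limma 3.58.1 (lmFit, eBayes), with Benjamini-Hochberg adjustment per comparison, and the steps were tested on simulated data. Members, lists and tests were chosen with earlier results of these data known. Values of every array are given for members among the 3 highest or lowest called differences of a comparison without overlap between groups, called at day 1, or with the largest range of group means in their family, and Efna1 was added after its values were seen. Alternatives were quantile normalization, centred arrays, no dim genes, a fit to the groups compared alone, a robust trended prior, a replicate block, every probe set, no fold minimum and omission of single arrays. Further work used Python 3.11.15, pandas 2.3.3 and matplotlib 3.10.9.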

Additional observations from a re-analysis of the deposited data

How the results depend on the processing

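Of the 99 member differences that were called, 81 stayed called under every alternative in which the gene was tested. Another 18 lost the call under at least 1, and 0 of the 99 changed sign. A member removed by the filter on dim genes was not counted as losing its call there. Without the dimmest 25% of genes, 1 member was higher in day-1 cells, 3 were higher in ES cells than in fibroblasts, and 1 was higher and 0 lower in iPS than in ES cells, because fewer members were tested. Without a fold minimum, 19 members were higher and 14 lower in day-1 cells, 10 were higher in iPS and 12 higher and 37 lower in ES cells than in fibroblasts, 13 were higher and 16 lower in iPS than in ES cells, and 13 higher and 39 lower in iPS than in day-1 cells. With centred arrays 7 members were higher in iPS cells than in fibroblasts and 2 lower in iPS than in ES cells, and with quantile normalization 3 were lower in the latter. The shares of all genes with a 2-fold minimum belong to the main setting. They do not apply to counts with centred or quantile-normalized arrays, the filter on dim genes or omitted arrays. The median of all genes against fibroblasts moved from -0.35 to -0.10 in iPS cells and -0.01 in ES cells with centred arrays, and the cause was not tested. Leaving out each array in turn gave 2 to 4 members higher and 3 to 5 lower in day-1 cells, 3 to 5 and 26 to 28 in iPS cells and 6 and 23 to 25 in ES cells against fibroblasts. The same gave 2 to 6 higher and 1 to 2 lower in iPS against ES cells, and 4 to 5 and 22 to 26 against day-1 cells. For samples of different groups that share a replicate number, 18 correlations of their deviations from group means ran from -0.21 to 0.06. Samples with different numbers reached 0.18. With 3 arrays a group such correlations cannot decide whether the numbers pair samples. With the replicate block the counts higher and lower were 3 and 3, 4 and 27, 6 and 24, 2 and 1, and 5 and 24 in the order given above.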

Other observations

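The probe set shared by Ntng2, a membrane-anchored netrin relative, and 6530402F18Rik read 6.74, 6.87 and 7.08 in fibroblasts, 6.99, 6.74 and 6.82 in day-1 cells, 6.31, 6.37 and 6.37 in iPS cells and 6.22, 6.32 and 6.52 in ES cells. The fibroblast and day-1 arrays lie above all iPS and ES arrays, and the 2 genes cannot be told apart on it.

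The group with the highest mean was the fibroblasts for 19 of the 52 members and the day-1 cells for another 19 (36.5% each, against 30.8% and 23.9% of all genes). The group with the lowest mean was the iPS cells for 19 members (36.5%, against 21.1% of all genes) and the ES cells for 20 (38.5%, against 33.8%).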
